A study of Mus musculus with 10 samples.

Results

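The miRNA hairpins of the miR-10, miR-99/100 and miR-125 families were examined in mouse sperm. These are 8 hairpins, mmu-mir-10a, mmu-mir-10b, mmu-mir-99a, mmu-mir-99b, mmu-mir-100, mmu-mir-125a, mmu-mir-125b-1 and mmu-mir-125b-2 (below without the prefix for mouse), out of 1136 miRNA hairpins with reads in at least 1 sample. They were taken by name, and all 8 had reads in all 10 samples and passed the filter on low counts, which 529 hairpins passed. The study fed C57BL/6J males a control diet with 10% of kcal as fat (CD-F0) or a high-fat diet with 42% of kcal as fat (HFD-F0), starting when the mice were 4 weeks old and, per the methods, lasting 10 weeks. Mature sperm were collected from the tail of the epididymis and the vas deferens, and the small RNA of 5 samples per group was sequenced to learn which small RNAs differ with the father's diet. The strain, generation and cell type were the same in both groups, and no gene was altered in either. The labels do not say whether a sample is 1 mouse or a pool, so the p-values below measure the spread between these samples, which may be partly technical.

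A miRNA is cut from a hairpin precursor and silences messenger RNAs that pair with its seed, the bases at positions 2 to 8 from its 5′ end. The miR-10 genes lie within the Hox gene clusters, whereas miR-99/100 and miR-125 genes lie together in clusters that each hold a let-7 gene, and miR-125 is the mammalian counterpart of lin-4, the first miRNA described in worms. Developing male germ cells make miRNAs of their own, and sperm in transit through the epididymis are also known to take up small RNAs from vesicles released by its epithelium.

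The mature 5p RNAs of the families are shown because they decide which hairpins can be told apart by a read. They are RefSeq sequences (GRCm38.p6), the seed is in capitals, and all 8 hairpins were matched by name. The copies mir-125b-1 and mir-125b-2 give the same 5p RNA.
miR-10a-5p: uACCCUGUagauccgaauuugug
miR-10b-5p: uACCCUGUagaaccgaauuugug
miR-99a-5p: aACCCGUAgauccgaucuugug
miR-100-5p: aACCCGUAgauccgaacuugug
miR-99b-5p: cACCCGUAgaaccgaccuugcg
miR-125a-5p: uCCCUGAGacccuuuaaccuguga
miR-125b-5p: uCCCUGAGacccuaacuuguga

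There are 3 seeds, ACCCUGU in miR-10, ACCCGUA in miR-99/100 and CCCUGAG in miR-125. Counted from 1 at the 5′ end, with the base of the first RNA named before the position, miR-10a-5p and miR-10b-5p differ only by U12A, and miR-99a-5p and miR-100-5p only by U16A. miR-99b-5p stands further off, with A1C, U11A, U16C and U21C relative to miR-99a-5p. miR-125a-5p and miR-125b-5p have the same first 13 bases and then part, and miR-125a-5p is 24 bases long against 22. The reads were aligned with 1 mismatch allowed, and every stretch of 18 bases from miR-10a-5p fits miR-10b-5p within that limit (6 of 6 stretches), as does every stretch of miR-99a-5p in miR-100-5p (5 of 5). No stretch of 18 bases from miR-99a-5p fits miR-99b-5p in this way, and none from miR-125a-5p fits miR-125b-5p. Reads that fit several hairpins are divided between them in the deposited counts, so mir-10a and mir-10b, mir-99a and mir-100, and the mir-125b copies may hold each other's reads and are uncertain as separate genes. The counts of mir-10a, mir-10b and mir-100 held fractions that an even split within a pair does not give, in 9 of 10 samples each. That of mir-125a was not whole in 5 of 10. The miR-125 sum was whole in every sample (16431 reads in CD-F0 replicate 1). The miR-10 and miR-99/100 sums mostly were not (69833.34 and 76012.67 reads there). All 8 hairpins together were whole but for rounding (162277.01 reads there), except in HFD-F0 replicate 5 (120611.49 reads). Some reads may thus be divided between mir-125a and the mir-125b copies, and between the miR-10 and miR-99/100 families. How many was not tested. All 8 hairpins had reads only among those that matched the genome.

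In the mouse genome (GRCm38, the coordinates of mm10) the hairpins lie on 5 chromosomes, all on the plus strand. mir-10a is at chr11:96317165-96317274, outside any protein-coding gene of the GENCODE M21 annotation, 993 bases before Hoxb4 and 11044 bases after Hoxb5. mir-10b is at chr2:74726070-74726137, in an intron of Hoxd3 and of Hoxd4. The chromosome 16 cluster holds mir-99a (chr16:77598936-77599000), let-7c-1 and mir-125b-2 (chr16:77646273-77646343), spans 47408 bases and lies in introns of the non-coding gene Mir99ahg. On chromosome 9, mir-100 (chr9:41531425-41531504), let-7a-2 and mir-125b-1 (chr9:41581926-41582002) span 50578 bases in introns of the non-coding gene 3110039I08Rik. The chromosome 17 cluster is much tighter, with mir-99b (chr17:17830188-17830257), let-7e and mir-125a (chr17:17830812-17830879) within 692 bases. Its host is Spaca6, which encodes a sperm protein needed for fusion with the egg. There mir-99b and let-7e are intronic, and mir-125a overlaps an exon of an annotated Spaca6 transcript.

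CD-F0 libraries held 30431401 to 31586854 clean reads and HFD-F0 libraries 29558751 to 32178088. miRNAs took 15.4% to 18.2% of the clean reads in CD-F0 and 14.5% to 23.5% in HFD-F0. CD-F0 replicate 1 stood apart by read composition, with the lowest share of reads that match the genome (64.9%, against 68.6% to 75.2% in the other libraries), the highest rRNA share (36.9%) and the lowest piRNA share (11.2%). By miRNA profile CD-F0 replicate 4 was least like the other libraries. Its mean correlation with them was 0.9626, against 0.9709 for CD-F0 replicate 1. HFD-F0 replicate 1 had the highest miRNA share, 23.5%, and a piRNA share of 13.7%. The male germ cell miRNAs were all present (12 of 12 listed hairpins, led by mir-449a with a mean of 6356 RPM, the reads of a hairpin scaled to 1000000 clean reads of the library). Hairpins listed for other cell types were present too. All 6 epithelial hairpins, all 9 of smooth muscle and stroma and all 7 of blood and immune cells had reads, and none of these 22 had a mean under 1 RPM. In whole-sperm preparations, fewer cells of one kind and less RNA per cell cannot be told apart.

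Together the 8 hairpins gave 3767 ± 985 RPM (SD, n = 5) in CD-F0 and 5529 ± 1340 RPM (SD, n = 5) in HFD-F0, or 2.23% ± 0.553 and 2.97% ± 0.631 of the miRNA reads. Their single levels were moderate. mir-99a ranked 40 by mean level among the 1136 hairpins, mir-10a 46, mir-100 47 and mir-10b 50, while the copies mir-125b-2 and mir-125b-1 ranked 97 and 100, mir-99b 119 and mir-125a 133. For scale, the highest hairpins were mir-143 (mean 26260 RPM), mir-21a (12070 RPM) and mir-449a (6356 RPM). A read covers a whole mature RNA, so RPM was not divided by length.

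Over the 10 samples the means ran from mir-99a (1110 RPM) through mir-10a (993 RPM), mir-100 (945 RPM), mir-10b (919 RPM), mir-125b-2 (238 RPM), mir-125b-1 (210 RPM) and mir-99b (130 RPM) to mir-125a (103 RPM). The upper 4 could not all be put in order beyond their spread, and these means pool both diets. In CD-F0 the means were 1012 RPM (mir-99a), 866 RPM (mir-100), 727 RPM (mir-10a) and 661 RPM (mir-10b). In HFD-F0 they were 1208, 1025, 1260 and 1176 RPM for the same hairpins. Within the pairs that differ by 1 base the order held in every sample. mir-10a over mir-10b was 1.059 to 1.125, and mir-99a over mir-100 was 1.149 to 1.194. mir-99a exceeded mir-10a in 7 of 10 samples, mir-10a exceeded mir-100 in 5 and mir-100 exceeded mir-10b in 5. A clear step followed, as mir-10b exceeded mir-125b-2 in 10 of 10 samples, with a mean log2 ratio of 1.97 ± 0.315 (SD). mir-125b-2 exceeded mir-125b-1 in 10 of 10 samples, but by a mean log2 ratio of only 0.22. Lower down, mir-125b-1 exceeded mir-99b in 8 samples and mir-99b exceeded mir-125a in 7, so these neighbours were not separated in every sample.

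The families also differed in how much they varied from sample to sample. The coefficient of variation over the 10 samples was 42.1% for the miR-10 sum, 49.5% for the miR-125 sum and 20.2% for the miR-99/100 sum. For 282 other hairpins with a mean of at least 10 RPM its median was 24.7%. These values pool both diets.

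mir-10a stood at 1184, 590, 517, 511 and 831 RPM in CD-F0 replicates 1 to 5 and at 1346, 1290, 891, 1771 and 1002 RPM in HFD-F0 replicates 1 to 5. The groups overlapped through CD-F0 replicate 1 only, since the other 4 CD-F0 samples lay below every HFD-F0 sample. The means were 727 ± 287 RPM (SD, n = 5) and 1260 ± 344 RPM (SD, n = 5). mir-10b followed the same pattern, at 1110, 525, 469, 457 and 745 RPM in CD-F0 and 1245, 1213, 821, 1672 and 931 RPM in HFD-F0. Here too 3 HFD-F0 samples exceeded the highest CD-F0 sample.

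**Figure D1:**
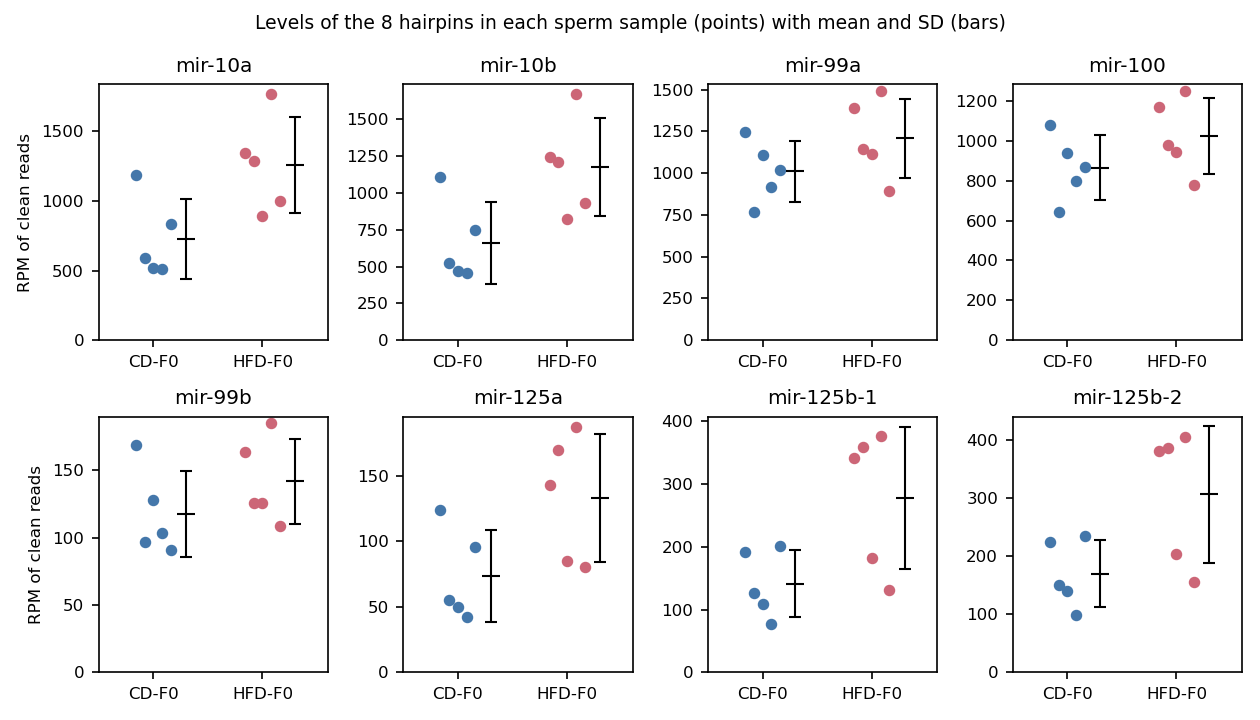
RPM of clean reads for each of the 8 hairpins, 1 panel per hairpin with its own axis from 0, with 5 CD-F0 samples in blue and 5 HFD-F0 samples in red as points in replicate order and the mean with SD as a black bar. For mir-10a and mir-10b 1 CD-F0 sample reaches the HFD-F0 range, for the mir-125 hairpins 3 of 5 HFD-F0 samples lie above all CD-F0 samples, and for mir-99a, mir-100 and mir-99b the groups largely overlap.

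In the miR-99/100 family the groups lay closer. mir-99a was measured at 1248, 767, 1109, 918 and 1017 RPM in CD-F0 and 1391, 1143, 1116, 1494 and 895 RPM in HFD-F0. The lowest value was a CD-F0 sample and the next to it an HFD-F0 sample, and 2 HFD-F0 samples exceeded the highest CD-F0 sample. mir-100 was at 1081, 643, 937, 799 and 867 RPM in CD-F0 and 1172, 978, 945, 1252 and 778 RPM in HFD-F0. mir-99b, the least abundant of the family, was at 168, 96.8, 128, 104 and 90.6 RPM in CD-F0 and 164, 126, 126, 185 and 108 RPM in HFD-F0. All 5 HFD-F0 samples of mir-99b lay above the CD-F0 median, but only 1 lay above the highest CD-F0 sample.

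mir-125a was the rarest hairpin, at 124, 55.4, 49.7, 42.1 and 95.8 RPM in CD-F0 and 143, 170, 85.0, 188 and 80.3 RPM in HFD-F0. Even its lowest value rests on 1325 reads, with a 95% Wilson interval of 39.9 to 44.4 RPM that covers counting error only, so counting error was small beside the spread between samples. mir-125b-1 was at 192, 126, 110, 76.9 and 201 RPM in CD-F0 and 342, 359, 183, 377 and 131 RPM in HFD-F0. mir-125b-2 was at 224, 150, 140, 99.7 and 235 RPM in CD-F0 and 382, 386, 204, 406 and 155 RPM in HFD-F0. Added together, the mir-125b copies gave 416, 276, 249, 177 and 437 RPM in CD-F0 and 724, 745, 387, 782 and 286 RPM in HFD-F0. HFD-F0 replicates 1, 2 and 4 formed a high set of 724 RPM or more, apart from the other 7 samples, which reached at most 437 RPM, and the remaining 2 HFD-F0 samples lay within the CD-F0 range.

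All 8 hairpins had a higher mean in HFD-F0, but none passed the thresholds of the study. In the edgeR quasi-likelihood fit over 814 small RNA features, 0 of 8 hairpins reached an unadjusted p of at most 0.05 together with an absolute log2 fold change of at least 1, where 3.69% of all features and 2.84% of the miRNA hairpins did. With DESeq2 it was also 0 of 8, where 28 features and 12 miRNA hairpins passed both thresholds. At an unadjusted edgeR p of at most 0.05 and any fold, 4 of 8 were higher in HFD-F0 (mir-10a, mir-10b, mir-125b-1 and mir-125b-2), where 6.14% of all features and 4.91% of the miRNA hairpins were. These 4 are not 4 separate observations, because the hairpins of each pair may share reads. DESeq2 gave 5 of 8, but the shares just given are those of edgeR and cannot be set beside that count. After Benjamini-Hochberg adjustment over all features no member was under 0.05 by edgeR, where 0.123% of all features, a single one, were, and the lowest adjusted p of a member by DESeq2 was 0.235. The median log2 fold change was 0.70 for the 8 hairpins, -0.05 for the miRNA hairpins tested and -0.01 for all features.

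On the log2 scale the edgeR fold change was 0.68 ± 0.29 (standard error) for mir-10a and 0.72 ± 0.30 for mir-10b, both with an adjusted p = 0.430, and with all 5 HFD-F0 samples above the CD-F0 median. For the mir-125b sum it was 0.82 ± 0.33 (standard error, adjusted p = 0.403), with 3 of 5 HFD-F0 samples above the highest CD-F0 sample. The copies gave 0.87 (mir-125b-1) and 0.74 (mir-125b-2). mir-125a had a like value, 0.75 ± 0.36 (standard error), but its unadjusted p was above 0.05 (adjusted p = 0.477). In the miR-99/100 family the edgeR log2 fold changes were 0.15 for mir-99a (95% confidence interval -0.25 to 0.55), 0.13 for mir-100 (-0.27 to 0.54) and 0.16 for mir-99b (-0.34 to 0.65), with adjusted p of 0.898, 0.898 and 0.907. These intervals do not include the threshold of 1 in either direction. Merged by family, the edgeR log2 fold change was 0.70 for miR-10, 0.14 for miR-99/100 and 0.79 for miR-125.

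**Figure D2:**
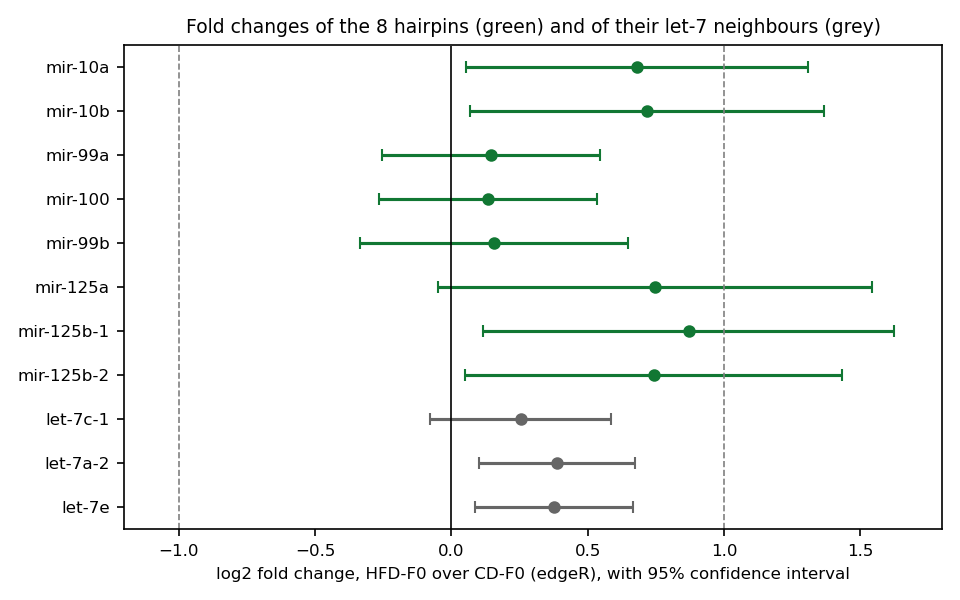
Log2 fold change of HFD-F0 over CD-F0 from edgeR (points) with its 95% confidence interval (bars) for the 8 hairpins in green and the let-7 hairpins of their clusters in grey, n = 5 per group. The solid line marks no change and the dashed lines the study's threshold of 1. The miR-10 and miR-125 hairpins lie between 0.68 and 0.87 and the miR-99/100 hairpins between 0.13 and 0.16.

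In the exact permutation test of the RPM (two-sided, all ways to assign 5 and 5 samples, smallest possible p 0.00794), p was 0.0317 for mir-10a and for mir-10b, and adjusted over all features it was 0.380 for each. Over genome-matched clean reads neither passed 0.05 (exact permutation p = 0.0794 and 0.0714). Over all miRNA reads the exact permutation p was 0.0556 for mir-10a and 0.0476 for mir-10b. With clean reads the same exact test gave 0.0635 for mir-125b-1, 0.0794 for mir-125b-2, 0.0714 for the mir-125b sum and 0.0714 for mir-125a. For mir-99a, mir-100 and mir-99b the exact permutation p was 0.183, 0.183 and 0.246. No member had every HFD-F0 sample above every CD-F0 sample, a pattern that 2.84% of the tested miRNA hairpins showed.

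The calls changed when single libraries were left out. Leaving out CD-F0 replicate 1, which stood apart by read composition, raised the edgeR log2 fold change to 1.05 for mir-10b, 1.09 for mir-125a and 1.07 for mir-125b-1. Then 3 of 8 hairpins passed both thresholds (edgeR adjusted p = 0.165, 0.294 and 0.330). In that fit 37 features and 24 miRNA hairpins passed both thresholds, against 30 and 15 with all libraries. Over all alternatives the edgeR or DESeq2 adjusted p of these 3 members ranged from 0.165 to 0.790 for mir-10b, 0.294 to 0.878 for mir-125a and 0.233 to 0.760 for mir-125b-1. Of the members, mir-125b-1 alone passed both thresholds without CD-F0 replicate 5 (log2 fold change 1.02) or without HFD-F0 replicate 5 (1.04). Without CD-F0 replicate 5, 50 features and 30 miRNA hairpins passed both, and without HFD-F0 replicate 5, 33 and 19 did. Without CD-F0 replicate 2, 3 or 4, or without HFD-F0 replicate 1, 2 or 4, the number of members at an unadjusted edgeR p of at most 0.05 went from 4 to 0. No member passed both thresholds there either, where 22 to 40 features and 9 to 24 miRNA hairpins did. The log2 fold changes stayed positive in these fits, from 0.49 to 0.67 for mir-10a, 0.52 to 0.71 for mir-10b, 0.71 to 0.81 for mir-125b-1 and 0.59 to 0.68 for mir-125b-2. In the exact permutation test, mir-10a and mir-10b no longer passed 0.05 without any one of CD-F0 replicates 2 to 5 or HFD-F0 replicates 1, 2 and 4 (exact permutation p from 0.0556 to 0.0714), while the mir-125b sum and its copies passed it without HFD-F0 replicate 3 or 5 (0.0238 to 0.0317), and mir-125a without these or without CD-F0 replicate 1 (0.0397 to 0.0476).

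The balance between the families was compared within each sample, which removes the choice of denominator. The miR-10 sum divided by the miR-99/100 sum was 0.919, 0.740, 0.454, 0.532 and 0.799 in CD-F0 and 0.950, 1.11, 0.783, 1.18 and 1.08 in HFD-F0. In 4 of 5 HFD-F0 samples this ratio exceeded the highest CD-F0 sample. The miR-125 sum divided by the miR-99/100 sum was 0.216, 0.220, 0.138, 0.120 and 0.270 in CD-F0 and 0.318, 0.407, 0.216, 0.331 and 0.206 in HFD-F0, and 3 HFD-F0 samples exceeded all CD-F0 samples. By contrast, miR-10 over miR-125 had means of 3.66 ± 0.641 (SD, n = 5) in CD-F0 and 3.64 ± 0.992 (SD, n = 5) in HFD-F0. Of all reads of the 8 hairpins, miR-99/100 took 53.9% ± 7.30 (SD, n = 5) in CD-F0 and 43.5% ± 4.20 (SD, n = 5) in HFD-F0. The miR-10 share was 36.0% ± 5.70 and 43.9% ± 3.44, and the miR-125 share 10.1% ± 2.24 and 12.6% ± 2.80 (SD, n = 5 each). The groups overlapped in all of these shares. Ratios and shares of family sums were not tested, and some reads may be divided between the miR-10 and miR-99/100 sums.

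**Figure D3:**
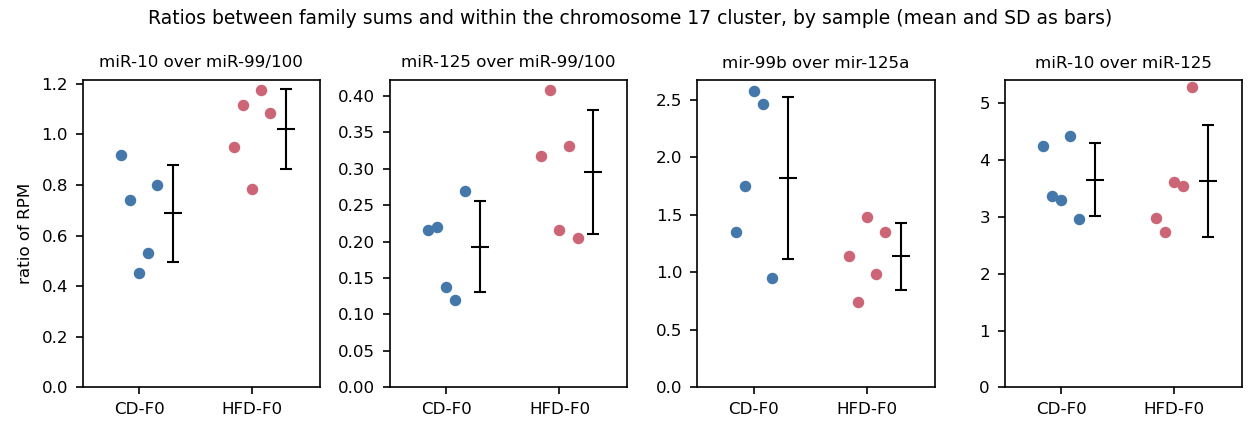
Ratios of RPM within each sample, with CD-F0 in blue and HFD-F0 in red (5 points each in replicate order) and the mean with SD as a black bar, each axis from 0. The ratio of miR-10 to miR-99/100 exceeds the highest CD-F0 value in 4 of 5 HFD-F0 samples, while the ratio of miR-10 to miR-125 spans 2.96 to 4.43 in CD-F0 and 2.74 to 5.28 in HFD-F0.

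The shares of the hairpins within their families had means within 2 percentage points of each other in the diet groups. mir-10a made 52.5% ± 0.536 (SD, n = 5) of the miR-10 sum in CD-F0 and 51.8% ± 0.268 (SD, n = 5) in HFD-F0. mir-99a, mir-100 and mir-99b made 50.8%, 43.4% and 5.87% of their family in CD-F0 and 50.8%, 43.2% and 5.95% in HFD-F0. The mir-125b copies made 81.3% ± 2.64 (SD, n = 5) of the miR-125 sum in CD-F0 and 81.1% ± 2.01 (SD, n = 5) in HFD-F0, and mir-125a made the rest. Of the copies, mir-125b-1 made 36.7% ± 1.32 (SD, n = 5) of the miR-125 sum in CD-F0 and 38.4% ± 1.53 (SD, n = 5) in HFD-F0, and 4 of 5 HFD-F0 samples exceeded the highest CD-F0 sample. mir-125b-2 made 44.6% ± 2.001 (SD, n = 5) and 42.7% ± 0.908 (SD, n = 5). The ratio of mir-125b-2 to mir-125b-1 was 1.17, 1.19, 1.27, 1.30 and 1.17 in CD-F0 and 1.11, 1.07, 1.12, 1.08 and 1.18 in HFD-F0. It was lower than every CD-F0 sample in 4 of 5 HFD-F0 samples, which was not tested.

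Because evenly divided reads cancel in a difference, mir-10a minus mir-10b was also computed. It was 74.0, 65.7, 47.1, 54.4 and 86.4 RPM in CD-F0 and 101, 76.8, 69.8, 98.2 and 71.6 RPM in HFD-F0, which is between 2.85% and 5.89% of their sum, with means of 4.998% ± 1.07 (SD, n = 5) in CD-F0 and 3.52% ± 0.536 (SD, n = 5) in HFD-F0. mir-99a minus mir-100 lay between 117 and 242 RPM in the 10 samples, or 6.93% to 8.83% of their sum. mir-125b-2 exceeded mir-125b-1 by 21.4 to 39.4 RPM, with means of 28.5 ± 5.02 RPM (SD, n = 5) in CD-F0 and 28.0 ± 6.93 RPM (SD, n = 5) in HFD-F0. As a percent of their sum this was 9.79% ± 2.51 (SD, n = 5) in CD-F0 and 5.32% ± 1.97 (SD, n = 5) in HFD-F0. The groups overlapped in each of these differences.

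Across the 10 samples, both diets pooled, the near-identical hairpins moved almost as one. For log2 RPM, Pearson's r was 0.9997 for mir-10a with mir-10b, 0.998 for mir-99a with mir-100 and 0.999 for mir-125b-1 with mir-125b-2, each with Spearman's rho of 1.0 and a permutation p of 1e-05 for both, the smallest that 100000 permutations can give (adjusted over 6 pairs 2e-05). Without the 2 samples farthest from the median of the first hairpin, r stayed at 0.9994, 0.997 and 0.998 (exact permutation p = 2.48e-05 each). Since these hairpins may hold each other's reads, the values do not show that the genes vary together.

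Hairpins of 1 cluster with different sequences were less tightly related. The first 2 pairs below are not separate observations, because mir-99a and mir-100, and likewise the mir-125b copies, may hold each other's reads. Pearson's r over 10 samples was 0.766 for mir-99a with mir-125b-2 (permutation p = 0.00998, adjusted over 6 pairs 0.015), 0.732 for mir-100 with mir-125b-1 (permutation p = 0.0163, adjusted 0.0196) and 0.662 for mir-99b with mir-125a (permutation p = 0.0423, adjusted 0.0423). Spearman's rho was 0.758, 0.758 and 0.588 (permutation p = 0.0151, 0.0154 and 0.0822, adjusted 0.0185, 0.0185 and 0.0822). The 6 pairs of the adjustment include the near-identical ones, whose low p may come from shared reads. It is therefore milder than an adjustment over the cluster pairs alone. Without the 2 farthest samples r was 0.727, 0.704 and 0.682 (exact permutation p = 0.0393, 0.0521 and 0.0710), so that the relation of the last 2 pairs no longer passed. The relation of the first pair depended on the denominator. Over all miRNA reads instead of clean reads, r fell to 0.508 for mir-99a with mir-125b-2 and to 0.447 for mir-100 with mir-125b-1. It fell for the third pair too. The samples also fell into separate sets by mir-125b, and within the 7 samples under the gap r was 0.516, 0.452 and 0.427 (exact permutation p = 0.239, 0.306 and 0.349). This split was chosen after seeing the data. For the first 2 pairs it narrows the range of mir-125b, which lowers r by construction. The third pair holds no mir-125b hairpin, but the split also took out the 3 samples with the highest mir-125a. These had 143, 170 and 188 RPM, against at most 124 RPM in the other 7 samples, so its range was narrowed too. For none of the pairs does the split show what the pooled relation rests on. With only 5 samples per diet, no r was computed within a diet.

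**Figure D4:**
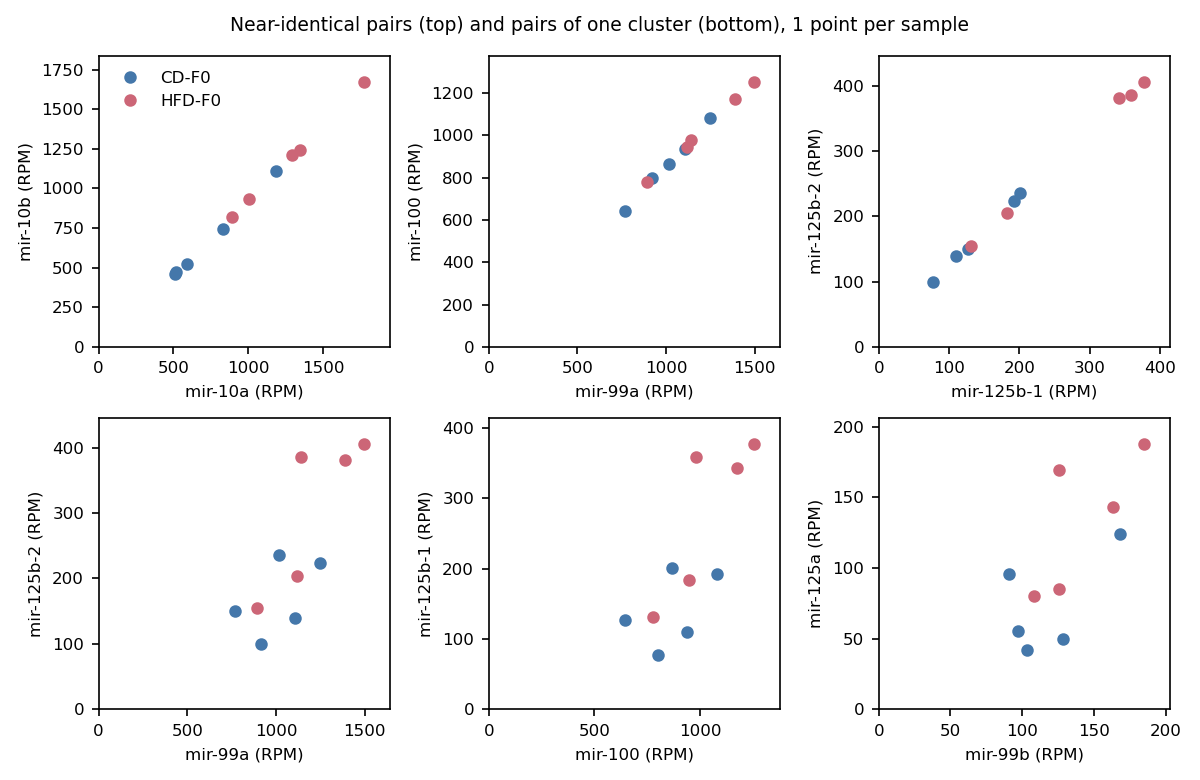
RPM of 1 hairpin against another, 1 point per sample (CD-F0 blue, HFD-F0 red), linear axes from 0, with the near-identical pairs in the upper row and pairs from the same genomic cluster in the lower row. The upper pairs lie almost on a line (r 0.998 or more on the log2 scale), while the lower pairs scatter (r 0.662 to 0.766).

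The let-7 hairpins of the same clusters belong to the family that blocks, among others, Lin28 and Ras messages, and they were more abundant than their neighbours. let-7a-2 had means of 3542 ± 474 RPM (SD, n = 5) in CD-F0 and 4936 ± 630 RPM (SD, n = 5) in HFD-F0, let-7c-1 had 3104 ± 236 and 3968 ± 863 RPM, and let-7e had 717 ± 124 and 988 ± 72.2 RPM. The counts of let-7a-2, let-7c-1 and let-7e held fractions as well (93864.78, 96626.28 and 17240.07 reads in CD-F0 replicate 1). They may thus hold reads of each other or of other let-7 hairpins and are uncertain as separate genes. let-7a-2 and let-7e were higher in every HFD-F0 sample than in every CD-F0 sample (exact permutation p = 0.00794 each, 0.202 adjusted over all features). Their edgeR log2 fold changes were 0.39 (adjusted p = 0.250) and 0.38 (adjusted p = 0.293), and that of let-7c-1 was 0.25 (adjusted p = 0.584). In the chromosome 17 cluster, within 692 bases, the log2 fold changes were thus 0.16 for mir-99b, 0.38 for let-7e and 0.75 for mir-125a. The ratio of mir-99b to mir-125a was 1.35, 1.75, 2.58, 2.46 and 0.946 in CD-F0 and 1.14, 0.741, 1.48, 0.984 and 1.35 in HFD-F0, and the groups overlapped. The differences between neighbours were not tested.

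Over the whole let-7 family (14 of 14 listed hairpins tested), 0 passed both thresholds of the study in edgeR, and 6 of 14 had an unadjusted p of at most 0.05, all higher in HFD-F0, where 6.14% of all features and 4.91% of the miRNA hairpins were. Several of these share mature sequences, such as let-7a-1 with let-7a-2 and let-7f-1 with let-7f-2. The median log2 fold change was 0.26, from 0.49 for let-7f-1 (edgeR adjusted p = 0.225) to 0.0001 for let-7j (edgeR adjusted p = 0.999), and no member had a negative value in this fit. In 5 of 14 every HFD-F0 sample lay above every CD-F0 sample, as in 2.84% of the tested miRNA hairpins and 30 of all 814 features.

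The hairpins outside the families with the most similar profile over the 10 samples, by Pearson's r of log2 RPM among 282 hairpins with a mean of at least 10 RPM and given without a test, differed between the families. For the miR-10 sum they were mir-200b (r = 0.914), mir-145a (0.907) and mir-200c (0.894), and the miR-125 sum itself had r = 0.917 with it. The miR-125 sum was most like mir-30a (0.893), mir-145a (0.877) and mir-30d (0.877). For the miR-99/100 sum they were mir-23b (0.836), mir-23a (0.822) and mir-28a (0.772). mir-200b and mir-200c belong to a family typical of epithelia, and mir-145a is typical of smooth muscle. mir-145a was up-regulated by the study's thresholds, rising by 1.09 ± 0.38 on the log2 scale (edgeR, standard error, adjusted p = 0.293), and its level ranged from 359 to 2636 RPM. mir-143, which is transcribed together with mir-145a, had a log2 fold change of 0.02 (edgeR adjusted p = 0.991).

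Because such hairpins moved with the miR-10 and miR-125 sums, the marker lists are given beside them. The 6 epithelial hairpins, led by mir-429, summed to 6643, 5412, 3969, 4817 and 6756 RPM in CD-F0 and 9463, 6351, 5520, 7229 and 5886 RPM in HFD-F0. Of these, 0 of 6 had an unadjusted edgeR p of at most 0.05, and the median log2 fold change was 0.29. The 9 hairpins of smooth muscle and stroma, of which mir-143 made 80.9%, summed to 34070, 28170, 35490, 25930 and 31400 RPM in CD-F0 and 42400, 35850, 33460, 38590 and 19230 RPM in HFD-F0. mir-145a was the only one with an unadjusted edgeR p of at most 0.05, and the median was -0.02. The 7 blood and immune hairpins, led by mir-146a, summed to 4518 ± 802 RPM (SD, n = 5) in CD-F0 and 4800 ± 1140 RPM (SD, n = 5) in HFD-F0, with 1 of 7 at or under that p and a median log2 fold change of 0.21. The 12 germ cell hairpins summed to 14050 ± 1125 and 12810 ± 3231 RPM, with 1 of 12 at or under that p, lower in HFD-F0, and a median of -0.01. At that p, 50 of all 814 features tested were higher in HFD-F0 and 33 lower. Of the 529 miRNA hairpins tested, 26 were higher and 25 lower. The part of other cell types in the levels of the 8 hairpins was not tested.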

How the data were processed

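The 10 samples (5 CD-F0, 5 HFD-F0) were grouped by their labels. Per the methods, small RNA of 18–30 nt was ligated to adapters with molecular identifiers and sequenced, and the authors assigned clean reads to RNA classes with SPORTS and Bowtie (version not given in the sources used here), 1 mismatch allowed, on mm10. Whether identifiers were collapsed is not stated. The deposited values are estimated counts, without normalization, of reads per hairpin, in which reads that fit more than 1 sub-class are divided among these. No other per-sample columns were used.

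Genome-matched and unmatched reads were added per hairpin, an absent hairpin was 0, and RPM is reads per 1000000 clean reads. Rounded estimated counts of 1470 features were fitted with edgeR 4.0.16 (R 4.3.3), filterByExpr, TMM and the quasi-likelihood test, p-values adjusted by Benjamini-Hochberg over the 814 features tested. The code was tested on simulated data. The exact permutation test was run on the RPM of every tested feature, and sums over families got no p. Correlations used log2 RPM, and profile likeness log2(RPM + 0.1). The Wilson interval covers counting error only, whereas the confidence intervals of the log2 fold changes come from the standard errors of the edgeR fit. No 2 libraries agreed within sampling noise (chi-square per degree of freedom 128 or more in 45 pairs). Named were the 8 hairpins, their sums, the let-7 hairpins of their clusters, the ends of the let-7 list, the 3 most abundant other hairpins and the 3 most alike per family. Also named were the leading hairpin of each marker list, examples of let-7 hairpins with shared mature sequences, and let-7 hairpins that changed direction. Members and lists were chosen with earlier results of these data known. Alternatives were DESeq2 1.42.0, other library sizes, filters and denominators, genome-matched reads only, merged hairpins, single libraries left out and a replicate block.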

Additional observations from a re-analysis of the deposited data

How the results depend on the processing

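Every member kept its direction in all edgeR and DESeq2 alternatives except mir-100, whose log2 fold change ran from -0.0012 (without CD-F0 replicate 2) to 0.2676 (without CD-F0 replicate 1) as single libraries were left out. let-7j, close to 0 throughout, ran from -0.0669 to 0.07 in the same way and let-7k from -0.1181 to 0.1985. let-7j was also at -0.0076 with at least 10 counts in every sample and at -0.0078 with DESeq2. The number of members past both thresholds was 0 to 3 with single libraries left out, and the number at an unadjusted p of at most 0.05 was 0 to 5. Without single libraries, 22 to 50 features and 9 to 30 miRNA hairpins passed both thresholds, and 0 to 2 features had an adjusted p under 0.05. No filter on low counts gave 93 features and 70 hairpins past both thresholds, and the stricter filter 19 features. An adjusted p under 0.05 was found for 5 features with clean reads as library size and for 13 with DESeq2. Replicate numbers gave no clear pairing of the samples. Deviations from the group means correlated at 0.336, -0.087, 0.246, -0.191 and -0.137 for same-numbered samples. For 2 of 5 CD-F0 samples the most correlated HFD-F0 sample had the same number. With so few samples this check cannot exclude a pairing. With the replicate block, 3 of 8 members had an unadjusted p of at most 0.05 and let-7j was at -0.0079. The member no longer at or under that threshold was mir-125b-2, with a log2 fold change of 0.73. No member passed both thresholds with the block, where 25 features and 10 miRNA hairpins did. Shares of all features at the unadjusted threshold alone are given for the main edgeR fit only. They cannot be set beside the counts of members in the alternatives.

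Over all miRNA reads instead of clean reads, Pearson's r fell to 0.5081 for mir-99a with mir-125b-2, 0.4474 for mir-100 with mir-125b-1 and 0.5085 for mir-99b with mir-125a. Within the 7 samples under the gap in mir-125b, an alternative chosen after seeing the data, it was 0.516, 0.452 and 0.4267. Without the 2 samples farthest from the median it was 0.7035 for mir-100 with mir-125b-1 and 0.6819 for mir-99b with mir-125a. The causes were not tested.

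In the exact permutation test of the RPM, mir-10a and mir-10b no longer passed over genome-matched clean reads (p = 0.0794 and 0.0714), and mir-10a over all miRNA reads (p = 0.0556). The lowest level of mir-125a, the rarest of the 8 hairpins, rested on 1325 reads, but whether these are separate molecules is not stated. The division of reads between near-identical sequences limits what can be said of single genes.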
